A study of Mus musculus with 22 samples.

Results

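Mmp13, the gene of collagenase 3, was followed across 3 doses of carbon nanotubes together with 5 other matrix metallopeptidase genes (Mmp2, Mmp3, Mmp9, Mmp10 and Mmp14) and 3 genes of their tissue inhibitors (Timp1, Timp2 and Timp3). These 9 genes, of 20018 that could be named on the array, were taken by symbol and are read by 10 of its 55681 probes, 2 of which belong to Timp2. The genes were chosen by their log2 ratios on these arrays at each dose against control, so those changes are given as a description and carry no test. Differences between doses were tested, on the same exposed arrays that entered the choice. The other genes named below were tested too. Most of them were named because they were called in these same tests, so their p-values are no independent support.

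The RNA was that of FE1, a line of lung epithelial cells of the transgenic MutaMouse, cultured for 24 h with the multi-walled carbon nanotube Mitsui7. The low dose (12.5 µg/ml) and the high dose (100 µg/ml) had 6 arrays each, and the medium dose (25 µg/ml) and the control (0 µg/ml, medium without particles) had 5 each. All cells, controls included, were grown with fetal bovine serum and murine epidermal growth factor. All samples are of 1 cell line. The cells were exposed in 3 separate experiments, fewer than the 5 or 6 arrays of a group, and which arrays share an experiment is not given. Each n below counts arrays, so the spread between arrays may in part be technical and p-values may be too small. Each array set the sample (dye Cy5) against the same commercial pool of RNA from 11 mouse cell lines (dye Cy3), and a value is the log2 ratio of the sample to that pool.

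Of the markers of an epithelial cell, the keratin genes Krt8, Krt18 and Krt19 were well above background on 21, 22 and 20 of the 22 arrays, Cldn4 was so on 5, and Cdh1 (E-cadherin) and Epcam on none. Of the alveolar and airway markers, the surfactant gene Sftpc was well above background on 14 arrays, the club cell gene Scgb1a1 on 18 and Aqp5 on 15, whereas the surfactant gene Sftpb, Foxj1 and the lung lineage factor Nkx2-1 were so on none. All 6 fibroblast markers (Col1a1, Col3a1, Pdgfra, Pdgfrb, Thy1 and Vim) were so on 22 arrays. Of macrophage, neutrophil and endothelial markers, Csf1r, Itgam, Elane and Kdr were also so on 22, Lyz2 on 1 and S100a8, S100a9 and Cdh5 on none. Being well above background thus does not by itself name the cell type. The arrays lay on 5 slides, and slide was a term of the model. The number of probes detected per array ranged from 23688 to 39139. Over all probes, 6 of the 22 arrays resembled another group more than their own: low dose replicate 1 the medium dose, low dose replicate 2 the controls, medium dose replicate 2 the low dose, medium dose replicates 1 and 5 the high dose, and high dose replicate 6 the medium dose. Low dose replicate 1 and medium dose replicate 2 were the 2 with a correlation below 0 to their own group. The change of Mmp13 is therefore also given without low dose replicate 1 and medium dose replicate 2.

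Matrix metallopeptidases are secreted or membrane-bound zinc enzymes that cut the proteins of the extracellular matrix. Collagenases such as collagenase 3 open the triple helix of fibrillar collagen, stromelysins (Mmp3 and Mmp10) have broad substrates and can activate other proenzymes, and gelatinases (Mmp2 and Mmp9) take denatured and basement membrane collagen. Mmp14 is a membrane-bound member that activates pro-MMP2 together with TIMP2, and TIMPs bind the active site of the enzymes. In the lung these genes are known from tissue repair, emphysema and fibrosis, and several of them are classical targets of AP-1, the dimer of Fos and Jun proteins.

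The stretches below are the 120 bases just before the start of Mmp13, Mmp3 and Mmp10, the 3 genes that rose, on the strand of the gene. They are shown because these neighbouring genes moved together. Capitals mark the letters TGANTCA, the sequence bound by AP-1, which reads the same on both strands. The sequences are from RefSeq on the mouse build GRCm38.p6, all on the plus strand.
Mmp13, chr9:7272394-7272513: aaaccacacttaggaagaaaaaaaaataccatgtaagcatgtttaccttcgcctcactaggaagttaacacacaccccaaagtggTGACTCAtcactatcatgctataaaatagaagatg
Mmp3, chr9:7445702-7445821: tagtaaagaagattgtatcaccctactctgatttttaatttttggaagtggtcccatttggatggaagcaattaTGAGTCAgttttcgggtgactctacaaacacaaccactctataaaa
Mmp10, chr9:7502222-7502341: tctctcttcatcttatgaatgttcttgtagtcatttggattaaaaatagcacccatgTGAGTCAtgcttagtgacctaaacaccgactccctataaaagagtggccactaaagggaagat

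The first capital lies 35 bases before the start of Mmp13, 46 before that of Mmp3 and 63 before that of Mmp10. Windows of 250 bases before to 50 bases after the start were given for 7 of the 9 genes (Mmp2 and Mmp9 are the others), and the letters TGANTCA were in 3 of these 7, against 7.81% of all 32851 windows of that length. They were not in the windows of Mmp14, Timp1, Timp2 and Timp3. TATAAA, the letters of a TATA box, were found on the gene's own strand in the windows of Mmp13, Mmp3 and Mmp10, and on either strand in 13.6% of all windows. AACCACA, letters bound by RUNX factors, were in the Mmp13 window alone of the 7 (119 bases before the start) and in 5.27% of all windows. AGGAAG, an ETS core, was found in 5 of the 7 and in 35.4% of all windows. Both strands were searched, and the matches of the 4 motifs before the start of Mmp13 do not overlap. A match is a string of letters and no evidence of binding.

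The collagenase and both stromelysins were far higher in exposed cells at every dose. Mmp13 had log2 ratios of -0.26, -0.07, -0.22, 0.11 and 0.07 on the control arrays. At the low dose it lay between 2.72 and 3.91, with a median of 3.26. The medium dose arrays read 3.28, 2.85, 3.86, 4.11 and 3.69, and the high dose arrays lay between 3.14 and 4.09 with a median of 3.33. All exposed arrays were thus above all controls, and the 3 exposed groups overlapped each other. The group means were -0.07 ± 0.17 (SD, n = 5), 3.21 ± 0.44 (SD, n = 6), 3.56 ± 0.50 (SD, n = 5) and 3.50 ± 0.40 (SD, n = 6) from control to high dose. With slide in the model Mmp13 was up-regulated by 3.23 ± 0.18 (SE) at the low, 3.63 ± 0.19 at the medium and 3.52 ± 0.18 at the high dose on the log2 scale, which is 9.37-, 12.4- and 11.5-fold.

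Mmp10, the gene of stromelysin 2, moved nearly as far. Its control arrays read 0.25, 0.34, 0.02, -0.19 and -0.05. The low dose arrays lay between 2.04 and 4.11 (median 3.32), the widest spread of the 3 doses. The medium dose arrays read 3.24, 3.40, 3.20, 3.34 and 3.75, and the high dose arrays lay between 2.58 and 4.03 (median 3.43). As with Mmp13, no exposed array reached down to the controls. The slide-adjusted change was 3.07 ± 0.24 (SE), 3.31 ± 0.25 and 3.25 ± 0.24 on the log2 scale from low to high dose, or 8.41-, 9.93- and 9.48-fold.

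Mmp3, the gene of stromelysin 1, was below the reference pool in all control arrays, at -1.66, -1.72, -2.53, -2.86 and -1.97. It lay between -0.95 and 0.42 (median -0.31) at the low dose, at -0.26, -0.05, -0.16, 0.39 and -0.31 at the medium dose, and between -1.25 and 0.16 (median -0.33) at the high dose. Exposed cells thus came near the level of the pool, and the lowest exposed array, a high dose one at -1.25, still lay above the highest control. The change was 1.93 ± 0.23 (SE), 2.07 ± 0.23 and 1.77 ± 0.23 on the log2 scale, or 3.82-, 4.20- and 3.41-fold.

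**Figure D1:**
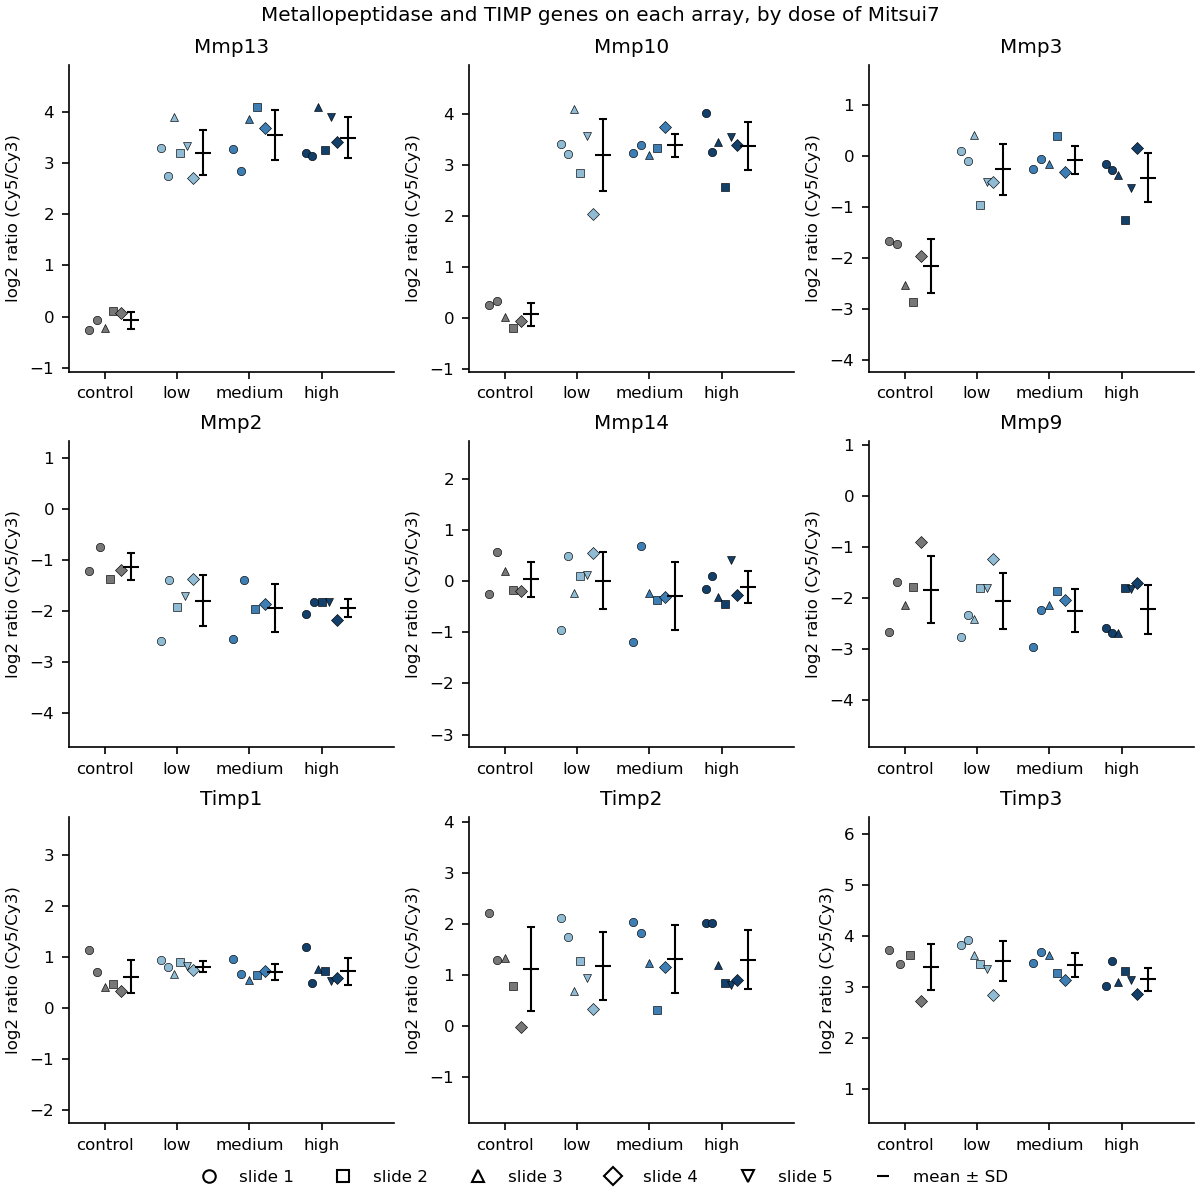
Log2 ratio of sample to reference RNA (vertical axis) for each of the 9 genes by dose group (horizontal axis), with 1 point per array, the marker shape for its slide, and the mean ± SD beside the points (brightest probe of each gene; every panel spans the same range of log2 units). Mmp13, Mmp10 and Mmp3 have all exposed arrays above all controls, Mmp2 lies lower in exposed cells with an overlap at the low dose, and the remaining genes overlap between groups.

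The control signals of these 3 genes were low. The Mmp13 spot read 93 to 255 units of Cy5 in controls and 450 to 3823 in exposed cells, and on 3 of 5 control arrays it stood well above background. Mmp10 read 73 to 119 units in controls, also well above background on 3 of 5. It was above the negative control spots on 3 of 5 controls, under the 4 required, so it passed the detection filter through the exposed groups. Its Cy3 signal was well above background on 3 of 6 low dose arrays and 3 of 5 controls. Mmp3 was well above background on 4 of 5 controls. The size of the change moved with the processing. With the scanner's own log ratio, which subtracts background and was not put through loess here, the low dose change was 3.86 for Mmp13, 4.43 for Mmp10 and 2.84 for Mmp3. By median centring without loess the low dose change was 2.74, 2.29 and 1.76. A background correction by the normexp method (offset 50), with loess kept, moved the medium dose change of Mmp10 from 3.31 to 3.00. These are bulk samples, in which fewer cells of a type and less RNA per cell cannot be told apart.

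**Figure D2:**
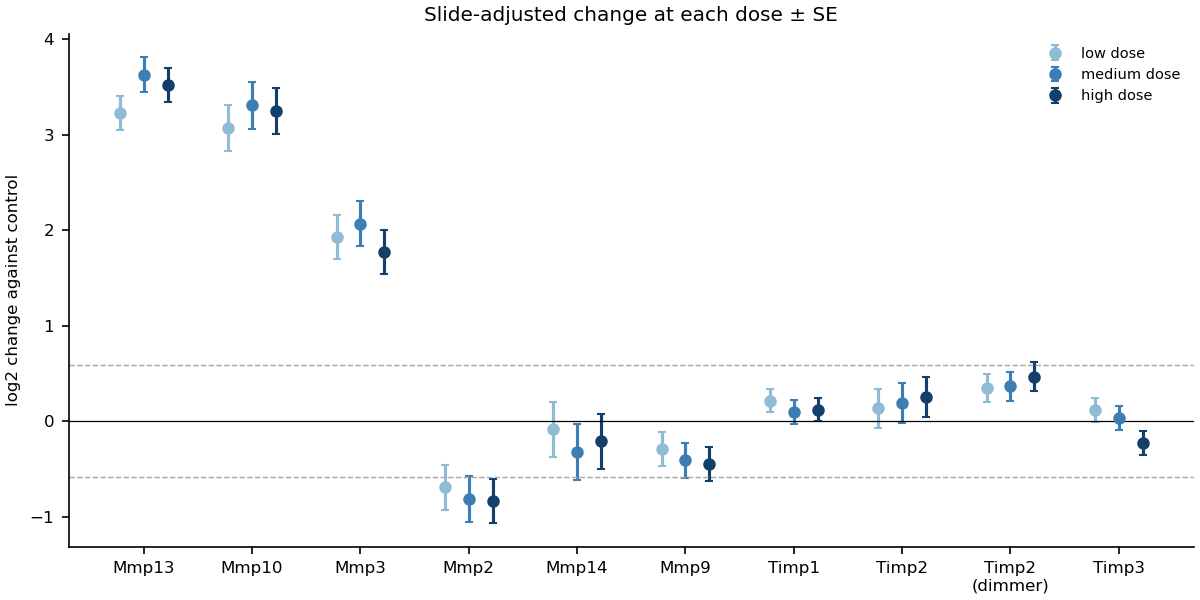
Slide-adjusted log2 change against control (vertical axis) at the low, medium and high dose for each of the 10 probes (horizontal axis), with bars of ± 1 SE from the model; dashed lines mark a 1.5-fold change. Mmp13, Mmp10 and Mmp3 stand at 1.77 or more at every dose, Mmp2 lies at -0.69 to -0.83, and the other probes lie between -0.45 and 0.47.

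A call required a limma adjusted p of 0.05 or less, a change of 1.5-fold or more, and detection of the probe (Cy5 above the negative control spots) on 4 or more arrays of 1 of the groups. Low dose cells had 3 of the 9 genes called higher and 0 lower, where 2.21% of all 13642 genes tested were called higher and 3.06% lower. Medium dose cells again had 3 higher and 0 lower of 9 (8 detected), beside 4.29% and 4.68% of all genes. High dose cells had 3 higher and 1 lower, beside 5.47% and 6.44%. Since the 9 genes were chosen with these comparisons known, nothing is read from these counts. The 3 that were higher were Mmp13, Mmp10 and Mmp3 at each dose. All exposed arrays lay above all controls for the same 3 genes, against 2.24% (low), 5.06% (medium) and 5.67% (high) of all genes tested.

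The rise was present on each slide that holds a control. On slides 1 to 4 the change of Mmp13 against the control of the same slide was 2.65 to 4.13 (low dose), 3.23 to 4.08 (medium dose) and 3.14 to 4.31 (high dose). That of Mmp10 was 2.09 to 4.08, 3.03 to 3.80 and 2.77 to 3.44. That of Mmp3 was 1.45 to 2.95, 1.53 to 3.25 and 1.47 to 2.15. Slide 3 gave the largest Mmp13 change at each dose and slide 4 the smallest at the low dose. Without low dose replicate 1 and medium dose replicate 2, the Mmp13 change was 3.14 at the low and 3.75 at the medium dose.

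**Figure D3:**
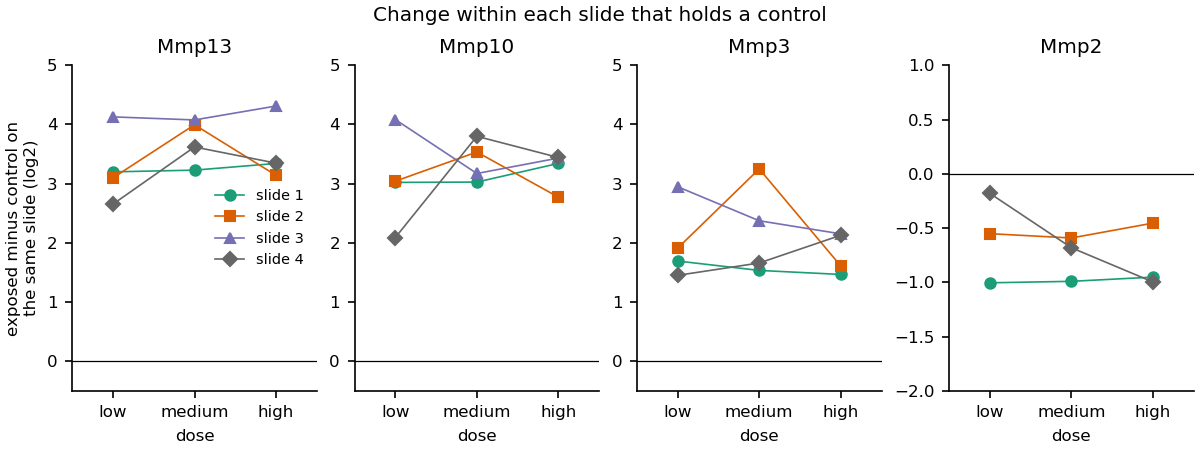
Difference between the exposed and the control arrays of the same slide on the log2 scale (vertical axis) at each dose (horizontal axis) for Mmp13, Mmp10, Mmp3 and Mmp2, with 1 line per slide (slide 1 holds 2 arrays of each group, the others 1). All 4 slides show a rise of 1.45 or more for the first 3 genes, and the 3 slides with values for Mmp2 show a fall of 0.18 to 1.00.

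Between the doses the 9 genes did not separate by limma's adjusted test. With 0 of 9 called between any pair of doses, the share of all genes called was 0.463% between high and low and 0% in the other pairs. At an unadjusted p under 0.05 there was 1 of the 9 in each pair, beside 14.9% of all genes tested between high and low, 5.47% between high and medium and 8.71% between medium and low. The order of Mmp13 was medium, high, low and then control. The high dose lay 0.29 above the low dose (95% interval -0.06 to 0.65, adjusted p = 0.692) and 0.11 below the medium dose (interval of high minus medium -0.49 to 0.27, adjusted p = 1). The medium dose lay 0.40 above the low dose (interval 0.02 to 0.78, adjusted p = 0.854). For Mmp10 the high dose lay 0.17 above the low dose (interval -0.30 to 0.64, adjusted p = 0.902). The difference of high minus low for Mmp3 was -0.16 (interval -0.61 to 0.28, adjusted p = 0.903). These intervals leave room for differences of up to 1.57-fold between high and low dose for Mmp13, so equality of the doses is not shown.

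Mmp2, the gene of gelatinase A, was the 1 gene of the 9 that met the call thresholds as lower, and at the high dose alone. As for the other members, the call describes the values that chose the gene and is no test of it. Control arrays read -1.21, -0.75, -1.37 and -1.18, the 4 with a value. The 5 low dose values lay at -2.59, -1.38, -1.92, -1.70 and -1.36, the 4 medium dose values at -2.55, -1.40, -1.96 and -1.87, and the 5 high dose values at -2.05, -1.81, -1.83, -1.81 and -2.18. High and medium dose arrays all lay below the controls, as for 5.74% and 4.88% of all genes tested, and 1 low dose array at -1.36 lay just above the lowest control. The change was -0.69 ± 0.24 (SE) at the low, -0.81 ± 0.24 at the medium and -0.83 ± 0.24 at the high dose, a 1.61-, 1.76- and 1.78-fold fall. All 4 Mmp2 spots of slide 3 were marked as outliers and left out of the fit. With the marks kept, the ratios there were -0.87 in the control and -0.99, -1.73 and -1.97 at rising doses, and Mmp2 also met the call at the medium dose (-0.82). With replicate numbers as the block instead of slides, Mmp2 was called at all 3 doses, at -0.69, -0.81 and -0.83. The high dose call was lost in 14 of 37 alternatives, at -0.95 to -0.68, 9 of which omit a single array: control replicate 1, 2, 3 or 5, low dose replicate 5, or high dose replicate 1, 3, 5 or 6 (-0.89 to -0.70).

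Mmp14, whose membrane-bound product activates pro-MMP2, was not called at any dose. From control to high dose its ratio averaged 0.04 ± 0.35 (SD, n = 5), 0.02 ± 0.56 (SD, n = 6), -0.28 ± 0.66 (SD, n = 5) and -0.11 ± 0.32 (SD, n = 6). All groups overlapped, and low dose replicate 1 (-0.96) and medium dose replicate 1 (-1.19) were the lowest arrays. The change was -0.09 ± 0.29 (SE), -0.32 ± 0.29 and -0.21 ± 0.29 on the log2 scale.

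Mmp9, the gene of gelatinase B, was close to background throughout. Its Cy5 signal ran from 78 to 123.5 units in controls and from 73 to 93.75 in exposed cells, and 2 of 5 control arrays and 0 of the 17 exposed arrays had it well above background. The exposed groups were thus not well above background, and neither were 3 of the 5 controls, so no fold is given. Fitted changes of -0.29 to -0.45 were not called, and with the scanner's own log ratio, which subtracts background, they were called at the low (-0.94) and high dose (-1.64).

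The inhibitor genes were bright on every array and changed little. Timp1 read 0.62 ± 0.33 (SD, n = 5) in controls and 0.82 ± 0.11 (SD, n = 6), 0.71 ± 0.15 (SD, n = 5) and 0.72 ± 0.26 (SD, n = 6) at rising doses, with groups that overlapped. Its change was 0.22 ± 0.12 (SE), 0.09 ± 0.13 and 0.12 ± 0.12. Timp3, whose product binds to the matrix, stood highest against the pool. It read 3.38 ± 0.45 (SD, n = 4), 3.50 ± 0.39 (SD, n = 6), 3.44 ± 0.24 (SD, n = 5) and 3.15 ± 0.23 (SD, n = 6) from control to high dose. High against low dose, Timp3 differed by -0.35 (95% interval -0.59 to -0.11), with an unadjusted p of 0.00638 and a limma adjusted p of 0.313, so it did not pass.

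Timp2, the inhibitor that takes part in pro-MMP2 activation, had 2 probes. Both had fitted changes above 0 at each dose, but they varied in opposite ways between arrays. The brighter probe spread from -0.02 to 2.22 over the 5 controls alone, and slide accounted for 75.0% of its variance over the 22 arrays. Its change was 0.14 ± 0.21 (SE), 0.19 ± 0.21 and 0.25 ± 0.21. The dimmer probe was steadier, from 0.77 to 1.25 in controls, and lay 0.35 ± 0.15 (SE), 0.37 ± 0.15 and 0.47 ± 0.15 higher at rising doses. Neither probe was called. After group and slide were removed, the 2 probes had a correlation of -0.53 over the 22 arrays (-0.65 to -0.45 when each array was left out in turn).

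Mmp13, Mmp3 and Mmp10 sit in 1 cluster of metallopeptidase genes on chromosome 9, and the genes between and beside them were not called. In the order of the chromosome the cluster holds Mmp13, Mmp12, Mmp1b, Mmp3, Mmp1a, Mmp10, Mmp8, Mmp27, Mmp20 and Mmp7. Of the 6 others with a probe, Mmp12, Mmp1a, Mmp20 and Mmp7 were well above background on no array, Mmp1b on 2 and Mmp8 on 1 of 22. Their changes lay between -0.19 and 0.05 on the log2 scale at all doses, with no call. As their spots were near background, a low level and a small change could not be seen.

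**Figure D4:**
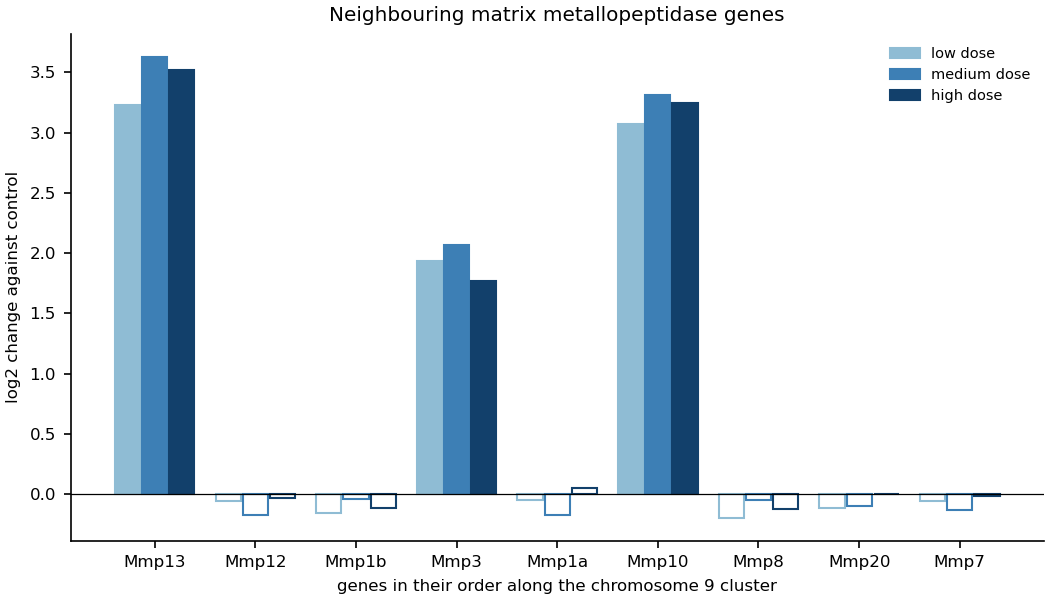
Log2 change against control (vertical axis) at each dose for the metallopeptidase genes with a probe, in their order along the chromosome 9 cluster (horizontal axis). Filled bars mark groups in which the spot was well above background on every array of that dose, open bars those in which it was not; Mmp13, Mmp3 and Mmp10 have filled bars of 1.77 or more, and the genes between and beside them have open bars within 0.2 of 0.

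The genes with a pattern most like that of Mmp13 were named by their Pearson correlation with it over the slide-corrected ratios of the 22 arrays, among 13552 named genes. The highest were Prl2c1 (r = 0.988) and Prl2c5 (0.984), placental prolactin family genes with near-identical copies that a probe may not tell apart. Mmp10 came next at 0.980 and Mmp3 stood 28th at 0.944. Between them were Gsto2, a glutathione transferase (0.976), Atf3, a stress-induced factor of the ATF family (0.971, over 21 arrays), Tcim (0.968), Tgif1, a homeobox repressor (0.967), and Edn1, the endothelin 1 gene (0.966). These genes also rose against control, Gsto2 by 2.61, 3.14 and 3.46, and Edn1 by 1.17, 1.20 and 1.10 on the log2 scale at rising doses. All points share the step from control to exposed cells. Within the 17 exposed arrays the correlations were lower, at 0.81 for Gsto2, 0.68 for Prl2c1, 0.66 for Mmp10 and 0.55 for Mmp3. Timp1 (0.33), Timp2 (0.22), Timp3 (-0.11), Mmp14 (-0.28) and Mmp9 (-0.56) were far down the order.

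Beyond dose and slide, arrays high in one of the 3 genes tended to be high in the others. With group and slide removed, the correlation over the 22 arrays was 0.69 for Mmp13 and Mmp3 (0.62 to 0.76 without single arrays), 0.64 for Mmp13 and Mmp10 (0.55 to 0.69) and 0.58 for Mmp10 and Mmp3 (0.43 to 0.77). Mmp2 and Mmp14 had 0.92 (0.87 to 0.97) over the 18 arrays with both values. Mmp9, which was close to background, had 0.67 with Mmp2 (18 arrays) and 0.66 with Mmp14 (22 arrays). With Mmp13, Mmp3 and Mmp10 it had -0.26, 0.04 and -0.29. Values as large as those of the 3 genes thus also occurred for a gene near background, and they do not by themselves show shared regulation. Mmp13 and Mmp2 had -0.53, which was -0.25 without 1 of the arrays. These values describe arrays that share dye labelling, scan and signal strength, and no test was made.

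The wider metallopeptidase system was read through 92 other genes in 9 lists, of which 91 had a probe. Low dose cells had 5 of the 64 detected genes called higher and 5 called lower. Medium dose cells had 8 higher and 6 lower of 62, and high dose cells 11 higher and 11 lower of 65. Of all genes tested, 5.28%, 8.97% and 11.9% were called in either direction. The lists were written with earlier results of these arrays known.

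The lists pulled in different directions. The list of transcription factors that act on metallopeptidase genes held 4, 5 and 7 genes called higher at rising doses, of 11 detected, and 0 lower. Of all genes tested, 2.21%, 4.29% and 5.47% were called higher. The median change of the list was 0.45, 0.55 and 0.79, beside 0.0092 over all genes tested at the high dose. Fosl1, which codes for the AP-1 subunit Fra-1, rose by 2.01 ± 0.31 (SE, adjusted p = 0.000509), 1.90 ± 0.32 (adjusted p = 0.00069) and 2.23 ± 0.31 (adjusted p = 5.45e-05) by limma at rising doses. It went from -2.17 ± 0.39 (SD, n = 5) in controls to 0.08 ± 0.46 (SD, n = 6) at the high dose, with every exposed array above every control. Jun rose by 1.19 ± 0.12 (SE), 1.45 ± 0.12 and 1.58 ± 0.12 (limma adjusted p = 5.15e-06, 3.59e-07 and 4.05e-08). Its low dose call was lost by median centring (1.05, adjusted p = 0.0504).

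Jund rose by 0.86 ± 0.21 (SE, adjusted p = 0.0146) at the medium and 1.25 ± 0.20 (adjusted p = 0.000287) at the high dose by limma, and read 0.39 ± 0.20 at the low dose (adjusted p = 0.421). Its medium dose call was lost in 8 of 37 alternatives, at 0.68 to 0.97, also when control replicate 5 (0.72) or medium dose replicate 5 (0.76) was left out. The other factor genes called at the high dose, named after their values were seen, were Fos, Fosb, Ets2 and Etv4, at 0.62 to 1.09. The call of Fosb was lost without control replicate 1 or 4, among 4 alternatives (0.66 to 0.96), and that of Etv4 without control replicate 4 or 5 or high dose replicate 1, among 7 (0.49 to 0.65). Junb, a further AP-1 subunit, was not called (-0.01 ± 0.26 (SE) at the high dose). Runx2, the gene of a RUNX factor, lay below control at each dose without a call, at -0.36 ± 0.13 (SE), -0.16 ± 0.13 and -0.26 ± 0.13.

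Several substrate genes fell. Of 7 detected genes of matrix proteins that metallopeptidases cut, 3, 4 and 4 were called lower at rising doses, and 0 higher. Of all genes tested, 3.06%, 4.68% and 6.44% were called lower. The median of the list was -0.40, -0.62 and -0.61. Col3a1, the gene of type III collagen, fell by 0.83, 1.35 and 1.70 on the log2 scale (SE 0.15 each, limma adjusted p = 0.00232, 1.15e-05 and 2.22e-07). Col1a2, which codes for a chain of type I collagen, fell by 0.77, 1.24 and 1.52 (SE 0.16 each, adjusted p = 0.00689, 5.15e-05 and 1.77e-06). For both collagen genes the high dose was also below the low dose, by -0.87 for Col3a1 (adjusted p = 0.00764) and -0.75 for Col1a2 (adjusted p = 0.0308). With Itgb3 these were the 3 genes of the 92 called between high and low dose, all lower, with 0.463% of all genes called. At the low dose the call of Col1a2 was lost in 4 alternatives (-0.93 to -0.65) and that of Col3a1 in 3 (-0.78 to -0.69), and that of Col1a2 at the medium dose in 1 (median centring, -1.11).

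Of the other metallopeptidases, 7 of 28 detected at the high dose were called, beside 11.9% of all genes tested. These were 4 of 13 ADAMTS, 1 of 9 ADAM and 2 of 6 matrix metallopeptidase genes. Adamts9, a secreted enzyme that cuts proteoglycans, fell by 1.63 ± 0.38 (SE), 1.41 ± 0.39 and 2.03 ± 0.38 on the log2 scale (limma adjusted p = 0.0171, 0.036 and 0.00122), the largest fall of the system at the high dose. Its low and medium dose calls were lost in 7 and 14 of 37 alternatives. Leaving out control replicate 3 or 4 ended the low dose call (-1.59 and -1.46), and leaving out control replicate 1, 2, 3 or 4 or medium dose replicate 1, 2, 3 or 5 ended the medium dose call (-1.45 to -1.24). The high dose call was lost without slide 1 (-1.94) and with the scanner's own log ratio (-2.20). The other 4 ADAMTS and ADAM genes called at the high dose, named after their values were seen, were Adamts14, which was higher (0.65), and Adamts2 (-0.63), Adamts10 (-0.74) and Adam23 (-0.74), which were lower. The call of Adam23 was lost in 1 of 37 alternatives, that of Adamts2 in 7 (also without control replicate 1 or 4), that of Adamts14 in 12 and that of Adamts10 in 15. Single arrays that ended the call were control replicate 1, 2, 3 or 5 or high dose replicate 2, 4 or 6 for Adamts14 (0.53 to 0.72 over the 12), and control replicate 1, 3, 4 or 5, low dose replicate 5 or high dose replicate 1, 3, 4 or 5 for Adamts10 (-0.82 to -0.48 over the 15).

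Mmp11, the gene of stromelysin 3, rose at the high dose by 0.78 ± 0.14 (SE, limma adjusted p = 0.000794), with 6 of 6 arrays above every control, and read 0.41 and 0.35 at the low and medium dose (adjusted p = 0.127 and 0.205). High and low dose did not differ by the test (0.37, adjusted p = 0.369). The Mmp11 call was lost by median centring (0.76) and without slide 1 (0.62). Mmp19 fell at the high dose by 0.60 ± 0.13 (SE, adjusted p = 0.0041), a value at the fold threshold, and its call was lost in 6 alternatives (-0.58 to -0.47), also when control replicate 1 or high dose replicate 1 or 2 was left out. At the medium dose Mmp19 read -0.54 (adjusted p = 0.0159), under 1.5-fold. It gained that call in 7 alternatives, also when control replicate 3 or 4 or medium dose replicate 3 was left out (-0.63 to -0.59). Of the other inhibitors, Timp4 and Reck were detected at the high dose, and limma called neither, with 0 of 2 at an unadjusted p under 0.05.

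The remaining lists had few calls. Cd44, a surface partner of metallopeptidases, was called higher at each dose (0.73, 0.88 and 0.97), Plaur, the urokinase receptor gene, at the medium and high dose (0.99 and 1.04), and Plat, the tissue plasminogen activator gene, was called lower at each dose (-0.84, -0.74 and -0.77). These 3 were named after their values were seen. Of the inducing ligands (the interleukin 1 genes, Tnf, Il6, Osm, Lif and Tgfb1) 4 were detected at each dose, and 1 call was made, Lif at the medium dose (0.60). At the low and high dose Lif read 0.48 and 0.52 (limma adjusted p = 0.0289 and 0.00789), under 1.5-fold. The medium dose call of Lif was lost in 10 of 37 alternatives (0.34 to 0.60), also without control replicate 1 or 3 or medium dose replicate 2 or 4. That of Plaur at the medium dose was lost in 6 (0.86 to 1.11), also without medium dose replicate 5.

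**Figure D5:**
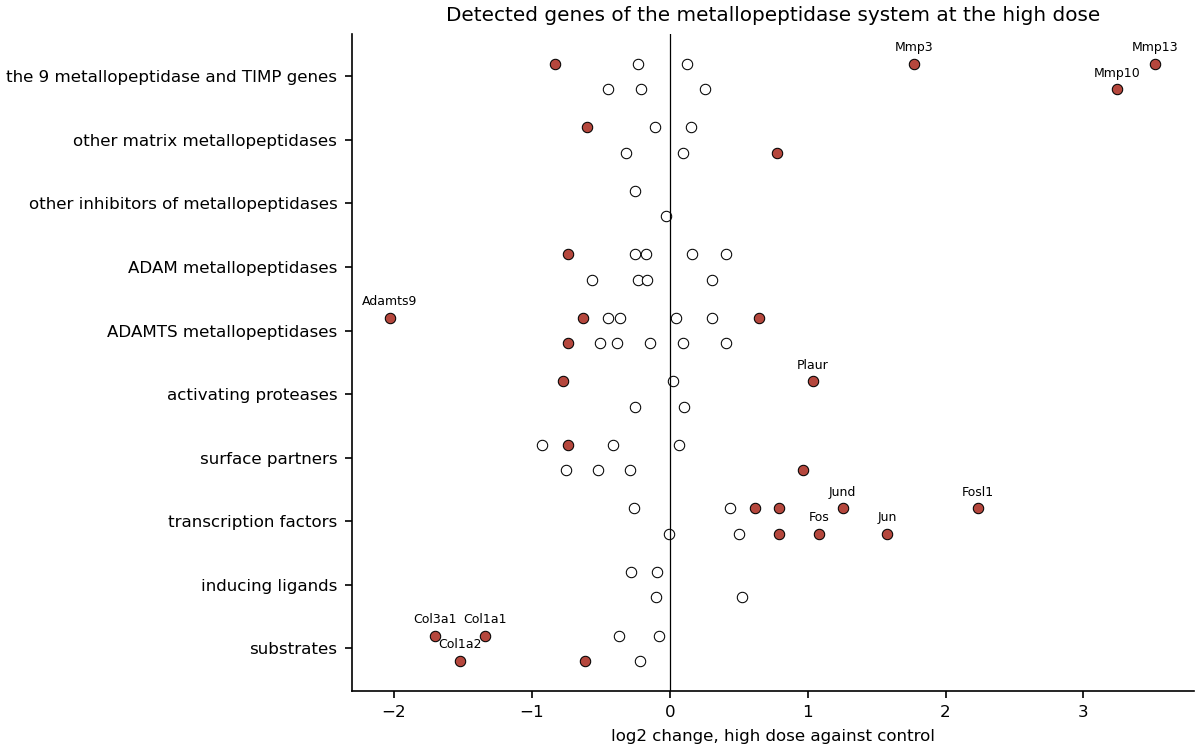
Log2 change at the high dose against control (horizontal axis) of every detected gene in the 9 lists of the metallopeptidase system and of the 9 metallopeptidase and TIMP genes in the top row (vertical axis: list; points are offset only to separate them). Filled points were called, and called genes beyond 1 are labelled; Mmp13 and Mmp10 lie farthest right at 3.52 and 3.25, the transcription factors have 7 filled points right of 0 and the substrates 4 filled points left of 0.

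Some markers of fibroblasts, collagen genes among them, were also lower in exposed cells. Of 6 fibroblast markers, all detected, 3, 4 and 4 were called lower at rising doses, beside 3.06%, 4.68% and 6.44% of all genes tested. The called markers include Col1a1 and Col3a1, which are also in the substrate list, and Pdgfra and Pdgfrb. The mean log2 ratio over the 6 genes ran from -0.71 to -0.23 in controls, -1.52 to -0.52 at the low, -1.63 to -1.01 at the medium and -1.89 to -1.07 at the high dose. Thy1 (-0.02 ± 0.17 (SE)) and Vim (0.14 ± 0.21) were not called at the high dose. The part of these markers in the change of Mmp2 was not tested. No epithelial, alveolar and airway, macrophage, neutrophil or endothelial marker was called by limma at any dose; at an unadjusted p under 0.05, alveolar and airway markers alone had any, 2 of 3 detected genes at the medium and 3 of 3 at the high dose, beside 33.1% and 36.2% of all genes tested. Their changes differed in direction at the high dose, at 0.61 for Sftpc, 0.49 for Scgb1a1 and -0.37 for Aqp5.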

How the data were processed

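The deposited scanner files hold the median intensity of each spot in both dyes, extracted by the authors without background subtraction (Feature Extraction 10.7.3.1, per the file headers), with a log10 ratio and outlier, background and saturation marks of the scanner software. The deposited table of the series holds the authors' log2 ratios, whose normalization is not given in the sources used here. Here spots with a mark for non-uniformity or population outlier were dropped, log2(Cy5/Cy3) of the median signals was normalized by loess within arrays, and spots of a probe were combined by the median. A probe was detected when Cy5 exceeded the trimmed mean (5%) plus 3 SDs of 308 negative control spots. All 55681 probes were fitted with limma 3.58.1 (R 4.3.3) with group and slide as terms over 22 arrays, in place of the shrinkage test of the study. The p-values were adjusted by Benjamini-Hochberg. The fit was run on simulated data with independent noise per array and changes only in probes detected on all 22 arrays. That run does not cover arrays that share an experiment or genes near background. A gene stands by its brightest probe.

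Symbols come from the probes' accessions through a RefSeq table (GRCm38.p6), used for names and gene order. The sample is always Cy5, so ratios keep any dye bias, which drops out of differences between groups. The number of arrays limits the precision. The members and lists were chosen with earlier results of these data known. The rule for naming genes took the 9 members and the 3 largest increases and decreases called at the high dose in the system lists. It also took called other matrix metallopeptidases and inhibitors, and the 8 genes most correlated with Mmp13. Marker genes and further list genes, such as Fos, Junb, Runx2, Cd44, Lif and Itgb3, were named outside this rule. Replicate numbers from the labels were used to pair the arrays in an alternative. After removal of group means all 31 pairs of equal number in different groups correlated at over 0.1 (0.19 to 0.82), most of them also sharing a slide. Of 16 pairs that shared a slide but not a number, 15 did so too, with a median of 0.33 against 0.55 for equal numbers. The 4 pairs of equal number on different slides had 0.27 to 0.49. For 19 of 22 arrays the best match in another group had the same number.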

Additional observations from a re-analysis of the deposited data

How the results depend on the processing

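Over 40 alternatives (22 of them leaving out 1 array), 2327 of 2442 recomputed changes and differences of single genes kept both direction and call, 78 changed their call and 37, none of them called, their direction. Member genes called stayed at 3 to 4 (low and medium dose) and 3 to 5 (high dose), and 0 between doses. The change of Mmp13 ranged from 2.74 to 3.86, 3.27 to 4.22 and 3.11 to 4.13 at rising doses. Other genes of the system called, 10, 14 and 22 at rising doses, were 5 (low) and 5 (medium) by median centring, 9 (medium) without a slide term, and 4, 6 and 9 with a 2-fold threshold; over single arrays left out they were 9 to 12, 10 to 15 and 17 to 23. With the replicate block in place of slide, which rests on the pairing of numbers, the counts were 13, 16 and 24 and the member counts 4, 4 and 4, as Mmp2 was added at the low and medium dose; no other member's call changed.

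Differences between doses that changed sign were small and never called. Timp3 medium minus low became 0.183 by median centring and 0.0341 without slide 1. Mmp10 high minus low became -0.0577 with the scanner log ratio and -0.0616 without slide 4 (single arrays left out -0.0713 to 0.376). Mmp10 high minus medium became 0.0155 (scanner), 0.102 (replicate block), 0.0969 (without slide 2) and 0.0365 (without slide 4; single arrays -0.201 to 0.122), and medium minus low -0.0733 (scanner) and -0.0981 (without slide 4; single arrays -0.0298 to 0.462). Mmp3 medium minus low became -0.112 (scanner) and -0.167 (without slide 2; single arrays -0.173 to 0.312), and high minus medium 0.0316 (without slide 2; single arrays -0.446 to 0.0101). Mmp13 high minus medium became 0.0058 (replicate block) and 0.0741 (without slide 2; single arrays -0.234 to 0.0276). The cause was not tested. Signal over background limits Mmp9, Mmp10 and the controls of Mmp13.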
